A study of Mus musculus with 30 samples.

Results

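Control C2C12 myoblasts on day 1 of differentiation were compared with control C2C12 myoblasts on day 0, with 3 libraries a day and no chromate. These are 6 of the 30 RNA-seq libraries of a study of C2C12 cells sampled at 4 times, days 0, 1, 2 and 4, as they differentiated with 0, 2 or 5 µM Cr(VI). The genes described are those with at least 1 CPM, as scaled by the authors, in at least 3 of the 6 libraries, which left 11556 of the 48709 genes listed. C2C12 is an established mouse line of muscle progenitor cells, grown as dividing myoblasts in medium rich in fetal bovine serum. The day 1 cells had been moved to differentiation medium, DMEM with little horse serum, and had 0 µM Cr(VI). The day 0 cells also had 0 µM Cr(VI) and mark the start of differentiation, and the medium they were harvested from is not stated. The libraries of each day are labelled as separate biological replicates of 1 line, so the p values measure the spread between these samples and no wider variation.

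When serum mitogens are withdrawn, myoblasts leave the cell cycle, and the myogenic factors of the basic helix-loop-helix (bHLH) family, paired with E proteins, switch on the genes of the contractile apparatus. MyoD and Myf5 mark the committed myoblast, myogenin drives terminal differentiation with MEF2 factors, and the fusogens myomaker and myomixer then join the cells into multinucleated myotubes. ID proteins hold back this step by binding E proteins, and growth factor signalling through ERK, MYC and cyclin D1 keeps the cells dividing.

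Reads per library, as recovered from the deposited values, numbered 22919779 to 25001080 on day 1 and 18462092 to 22731054 on day 0. Genes above 0 numbered 13077 to 13353 on day 1 and 12651 to 12833 on day 0, and replicates of a day correlated at 0.9787 to 0.9844 (Pearson, log2 scale). All 9 myoblast markers passed the level filter, with a summed level of 4047 to 4089 scaled CPM on day 1 and 1597 to 1852 on day 0. Most of that sum was Des and Itga7. In the test described below 6 of the 9 were higher and 3, Myod1 and Myf5 among them, did not pass. The summed level of 9 myocyte markers was 2814 to 3218 scaled CPM on day 1 and 419.6 to 462 on day 0. Nearly all of the day 0 sum was Chrna1, at 405, 446 and 432 scaled CPM. Of the marker lists of other cells, the members at 0 in all 6 libraries were 3 of 9 for adipocytes, 5 of 9 for leukocytes, 6 of 9 for endothelium, 4 of 9 for epithelium, 5 of 10 for neural cells, 4 of 9 for osteoblasts and cartilage and 2 of 10 for fibroblasts. Among these were Lep and Cfd of adipocytes, Csf1r and Cd3e of leukocytes, Pecam1, Cdh5 and Kdr of endothelium, and Epcam of epithelium. Some other members were well expressed, and their part in the results was not tested. The osteoblast and cartilage list summed to 1638 to 2198 scaled CPM on day 1 and 3866 to 3930 on day 0, most of it from Spp1, which encodes osteopontin and fell. The neural list summed to 148 to 175 scaled CPM on day 1 and 197 to 244 on day 0, most of it from the tubulin gene Tubb3, which fell, and from Map2, which rose. The epithelial list summed to 6.67 to 10.6 scaled CPM on day 1 and 12.7 to 22.6 on day 0, and the adipocyte list to 4.55 to 8.60 on day 1 and 2.34 to 3.91 on day 0. The fibroblast markers are given beside the collagen genes.

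Of the genes tested, 3183 (27.5%) were higher and 2958 (25.6%) lower on day 1 than on day 0, and 5415 did not pass. The 6141 genes that changed in either direction (53.1%) were called in limma where the p value, adjusted over all 11556 genes by the method of Benjamini and Hochberg, was under 0.05. In 3480 genes (30.1%) every day 1 library was above every day 0 library, and in 3288 (28.5%) every day 1 library was below. The counts given for gene lists are to be read beside these shares of all genes. Of the called changes 3817 were under 2-fold. Changes of 2-fold or more were found upward for 1266 genes (11.0%) and downward for 1058 genes (9.16%). The upward tail was the longer, with 121 genes higher and 17 genes lower by 3 or more log2 units. The median change of all genes was 0.03 on the log2 scale, and 5% of genes lay below -1.38 and 5% above 1.53. Changes are differences of log2(scaled CPM + 1) with their standard error (SE), a scale that understates the change of genes near 0. A gene under 1 scaled CPM in every library of 1 day passed the level filter only through the other day, so its direction was fixed in advance. With a pseudocount of 5 in place of 1, the genes higher by 2-fold or more numbered 732. In bulk RNA such as this, fewer cells of a type and less RNA per cell cannot be told apart.

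**Figure D1:**
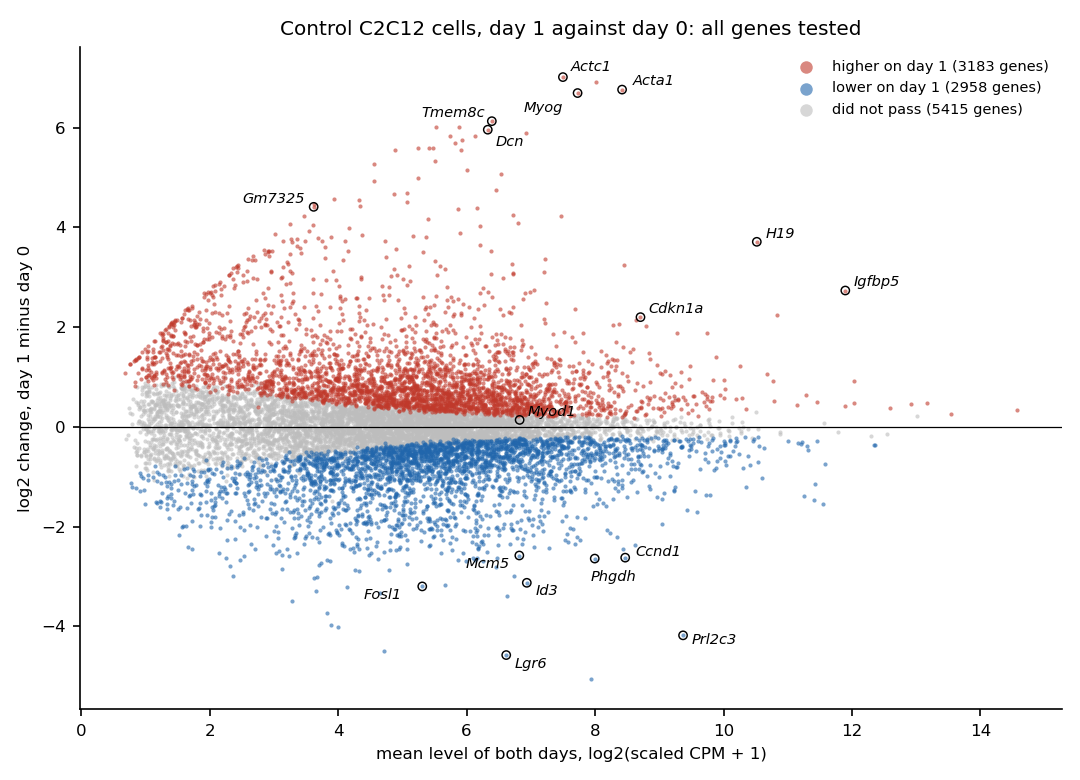
Each point is 1 of 11556 genes, with the mean level of both days on the x axis, log2(scaled CPM + 1), and the log2 change, day 1 minus day 0, on the y axis. Red points are the 3183 genes higher on day 1, blue points the 2958 genes lower on day 1 and grey points those that did not pass. The muscle genes Myog, Acta1 and Actc1 stand at the top, near a change of 7, while Prl2c3 and Lgr6 stand at the bottom, past -4.

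Among the myogenic regulators, myogenin rose most and MyoD did not pass the test. Of 24 regulators in the table, 22 were tested, and 15 rose (27.5% of all genes tested did), 2 fell (25.6% of all) and 5 did not pass, with a median change of 0.89 against 0.03 over all genes. Myog, which encodes myogenin, had 412, 407 and 436 scaled CPM on day 1, against 2.25, 3.20 and 3.86 on day 0. Every day 1 library stood far above every day 0 library, and the change was 6.70 ± 0.11 (SE, adjusted p = 1.9e-23). With a pseudocount of 0.1 or 5 in place of 1, that change was 7.06 or 5.71. Myod1, the determination factor, had 120.1, 105 and 129 scaled CPM on day 1 and 105, 111 and 104 on day 0. The days overlapped, and its change was 0.14 ± 0.10 (SE, adjusted p = 0.25). Myf5 had 51.3, 71.5 and 70.2 scaled CPM on day 1 and 49.9, 51.1 and 62.4 on day 0, an overlap again, with a change of 0.23 ± 0.14 (SE, adjusted p = 0.19). Without day 1 replicate 1 its change was 0.38 and passed, with an adjusted p of 0.0386 from limma. Myf6, the fourth member of the family, was below the level filter, with 0.501, 0 and 0.126 scaled CPM on day 1 and 0.720, 0 and 0.0521 on day 0.

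The MEF2 genes, partners of these factors, rose. Mef2a, a MADS-box activator of muscle genes, had 323, 284 and 331 scaled CPM on day 1 and 92.6, 85.1 and 108 on day 0, a change of 1.71 ± 0.09 (SE, adjusted p = 3.0e-13). Mef2d changed by 1.02 ± 0.10 (SE, adjusted p = 1.0e-08), and Mef2c, at 14.1, 9.90 and 11.3 scaled CPM on day 1 and 8.86, 6.52 and 6.25 on day 0, by 0.64 ± 0.15 (SE, adjusted p = 0.00097). In each of the 3 MEF2 genes the days did not overlap. Rbm24, an RNA-binding protein of muscle splicing, had 97.6, 74.1 and 95.5 scaled CPM on day 1 against 0.225, 0.168 and 0.834 on day 0. Smyd1, a muscle lysine methyltransferase that acts in sarcomere assembly, had 68.2, 57.6 and 64.4 scaled CPM on day 1 against 2.79, 1.26 and 0.834 on day 0. Both were among the genes close to 0 in the day 0 libraries. Pax7, the paired-box factor of satellite cells, was higher on day 1, at 49.5, 36.9 and 38.9 scaled CPM against 22.4, 19.6 and 9.22 on day 0. The coactivator Carm1, an arginine methyltransferase, fell by 0.56 log2 units. Srf, the factor of actin-regulated genes, had 64.8, 66.0 and 53.5 scaled CPM on day 1 and 56.3, 62.5 and 56.2 on day 0, and did not pass.

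The promoters of Myog and of Klhl41, a sarcomere assembly gene that also rose, are shown because they hold the E-box that bHLH factors are known to bind and, in Klhl41, the motif of MEF2 factors. Both come from RefSeq (build GRCm38.p6) and run 5′ to 3′ over 250 bases before and 50 after the start. Myog is at chr1:134289754-134290053 on the plus strand and Klhl41 at chr2:69669870-69670169 on the plus strand. Capitals mark each E-box, spelled CANNTG, and the MEF2 motif, spelled CTANNNNTAG, both searched on both strands.
Myog: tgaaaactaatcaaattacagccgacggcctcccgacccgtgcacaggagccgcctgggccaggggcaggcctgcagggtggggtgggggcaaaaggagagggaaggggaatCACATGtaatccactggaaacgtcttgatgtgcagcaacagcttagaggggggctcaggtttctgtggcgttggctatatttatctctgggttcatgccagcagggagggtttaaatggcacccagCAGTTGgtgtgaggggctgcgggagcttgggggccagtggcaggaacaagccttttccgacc
Klhl41: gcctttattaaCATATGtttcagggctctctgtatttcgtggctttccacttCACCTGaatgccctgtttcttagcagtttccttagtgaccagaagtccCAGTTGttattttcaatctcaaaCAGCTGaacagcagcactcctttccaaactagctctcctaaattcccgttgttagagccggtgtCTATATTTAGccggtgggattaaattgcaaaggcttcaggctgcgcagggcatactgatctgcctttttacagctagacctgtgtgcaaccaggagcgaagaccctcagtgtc
The Myog window held 2 E-boxes, CACATG at 138 and CAGTTG at 12 bases before the start. The Klhl41 window held 4 E-boxes, at 239, 198, 150 and 127 bases before the start, and the MEF2 motif at 63 bases before it. Such matches are common for the short motif, since 75.0% of all promoters and 66.3% of those of genes tested hold a CANNTG. The longer MEF2 motif is in 4.23% of all promoters and 3.56% of those of genes tested. Other spellings of the MEF2 motif were not searched, so the Myog window may hold a MEF2 site that is not marked. A match describes the letters in the window and is not evidence of binding.

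The inhibitors of myogenic bHLH factors split into those that fell and those that rose. Of 19 in the table, 16 were tested, and 6 rose (37.5%, against 27.5% of all genes tested), 6 fell (37.5%, against 25.6%) and 4 did not pass. The median was 0.03, the same as over all genes. Among those that fell were the 3 ID genes. Id1 had 14.3, 19.5 and 11.7 scaled CPM on day 1 and 100.3, 111 and 87.4 on day 0, Id2 had 17.4, 22.1 and 19.0 on day 1 and 132, 130.1 and 132 on day 0, and Id3 had 20.5, 26.2 and 25.9 on day 1 and 221, 238 and 197 on day 0. No day 1 library reached a day 0 library for any of the 3, and the changes were -2.66, -2.70 and -3.13. Twist2, a bHLH repressor, changed by -1.52, and Ezh2, the methyltransferase of the Polycomb repressive complex, by -1.39. Heyl and Hey1, repressors switched on by Notch, went the other way. Heyl had 91.1, 83.1 and 85.5 scaled CPM on day 1, against 1.12, 0.757 and 0.625 on day 0, and Hey1 had 30.2, 33.1 and 21.9 on day 1, against 7.24, 9.17 and 11.2 on day 0. The MEF2-binding deacetylase genes Hdac9 and Hdac4 also rose, by 2.08 and 1.11, and so did Zeb1, a zinc finger repressor, by 1.33. Hes1, a Notch target, had 43.4, 48.8 and 46.0 scaled CPM on day 1 and 46.1, 43.1 and 52.4 on day 0, and did not pass.

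Both fusogen genes rose and were near 0 on day 0, and 15 of 24 genes of cell fusion and contact were higher on day 1. The table held 30 of these genes, and of the 24 tested 1 was lower and 8 did not pass, with a median of 0.46. Tmem8c, the older symbol of myomaker, had 160.2, 150 and 183 scaled CPM on day 1, against 2.16, 0.968 and 1.09 on day 0, a change of 6.13 ± 0.13 (SE, adjusted p = 3.0e-21). Gm7325, the older symbol of myomixer, had 18.8, 19.0 and 29.6 scaled CPM on day 1, against 0.0900, 0.0421 and 0.104 on day 0. The day 0 values are 1 or 2 reads a library, so no fold is given. Gm7325 passed the level filter only through its day 1 values, so its direction was fixed in advance. Adhesion genes were well measured on both days. Cdh15, the muscle cadherin, had 515, 539 and 509.8 scaled CPM on day 1 and 170.2, 186 and 158 on day 0. The tetraspanin gene Cd82 averaged 647 ± 38 scaled CPM on day 1 and 145 ± 19.3 on day 0 (SD, n = 3 each), and Itga7, the laminin receptor of muscle, averaged 973 ± 27.6 scaled CPM on day 1 and 264 ± 26.9 on day 0. Dysf, which encodes the membrane repair protein dysferlin, changed by 1.84 ± 0.16 (SE, adjusted p = 8.8e-10). Jam2, a junctional adhesion molecule, was the 1 that fell, by 0.61. Itgb1 averaged 1265 ± 69.7 scaled CPM on day 1 and 1261 ± 76.2 on day 0 and Rac1 491 ± 30.5 scaled CPM on day 1 and 494 ± 24.9 on day 0, and neither passed.

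Genes of the contractile apparatus were near 0 on day 0 and well measured on day 1. Of 19 actins and myosins in the table, 10 were tested, and 9 rose while Mylk2, the kinase of myosin light chain, did not pass, with a median of 5.72. Members near or below 1 scaled CPM on day 0, such as Myh3, passed the level filter through their day 1 values. The count of rises therefore does not describe the whole list, and the same limit applies to the other muscle gene lists. These genes took 0.201% ± 0.0156 of the reads on day 1 and 0.00225% ± 0.000359 on day 0, and with 3 libraries a day the exact permutation p, two-sided, was 0.1, the smallest such a design can give. Acta1, skeletal actin, had 703, 602 and 727 scaled CPM on day 1, against 5.31, 5.30 and 5.05 on day 0, and changed by 6.76 ± 0.09 (SE, adjusted p = 3.6e-25). Actc1, the cardiac actin that embryonic muscle also makes, had 362, 322 and 389 scaled CPM on day 1, against 2.61, 2.10 and 0.886 on day 0. Myh3, embryonic myosin heavy chain, had 113, 89.3 and 109 scaled CPM on day 1, against 0.720, 1.18 and 0.625 on day 0. For all 3 genes the days lay far apart, and no libraries overlapped. The light chain genes Mylpf and Myl1 changed by 6.91 and 5.76.

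The troponins rose, while Tpm3 fell and Tpm1 did not pass. Of 11 troponin and tropomyosin genes in the table, 10 were tested, and 8 rose, 1 fell and 1 did not pass, with a median of 4.71. Among the calcium-sensing and inhibitory subunits, Tnnc2 had 114, 105 and 126 scaled CPM on day 1 and 0.900, 1.22 and 0.365 on day 0. Tnnc1 changed by 5.14 ± 0.14 (SE, adjusted p = 6.6e-19) and Tnni1 by 4.75 ± 0.10 (SE, adjusted p = 3.0e-21). Tnni2 had 46.6, 38.9 and 48.9 scaled CPM on day 1 and 0.585, 0.842 and 0.156 on day 0. Tnni2 passed the level filter only through its day 1 values, so its direction was fixed in advance. Tnnt3, the fast troponin T, had 93.4, 65.6 and 88.6 scaled CPM on day 1 against 0.540, 1.09 and 0.573 on day 0. The slow forms Tnnc1 and Tnni1 and the fast forms Tnnc2, Tnni2 and Tnnt3 were thus higher alike on day 1. Tpm3, a tropomyosin made in many cell types, fell by 0.69. Tpm1 had 618, 610.2 and 678 scaled CPM on day 1 and 677, 641 and 659.8 on day 0, and did not pass.

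Genes of the Z-disc, the M-band and sarcomere assembly made up the longest list of rises. Of 36 in the table, 29 were tested, with 26 higher, all of them by 2-fold or more (11.0% of all genes were), 1 lower, 2 that did not pass and a median of 3.10. Ttn, which encodes the molecular spring titin, had 83.2, 55.4 and 60.2 scaled CPM on day 1, against 4.23, 3.53 and 3.23 on day 0. Pdlim3, a Z-disc LIM protein, had 208, 255 and 250.2 on day 1 against 1.26, 3.91 and 4.69 on day 0, and Myom2, of the M-band, had 147, 119 and 143 on day 1 against 1.66, 1.22 and 1.30 on day 0. Klhl41, whose promoter is shown above, had 118, 109.9 and 122 scaled CPM on day 1, against 2.02, 1.51 and 1.04 on day 0. Unc45b, the chaperone of myosin folding, was at 0 in 2 day 0 libraries and had 22.3, 23.8 and 21.5 scaled CPM on day 1. Mybph, a myosin-binding protein that is not in this list, changed by 5.69 ± 0.13 (SE, adjusted p = 8.8e-21). None of these overlapped between the days, though for Unc45b, under 1 scaled CPM in every day 0 library, this was fixed in advance. Ankrd1, a stretch-responsive repeat protein, was the member that fell, by 0.47.

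**Figure D2:**
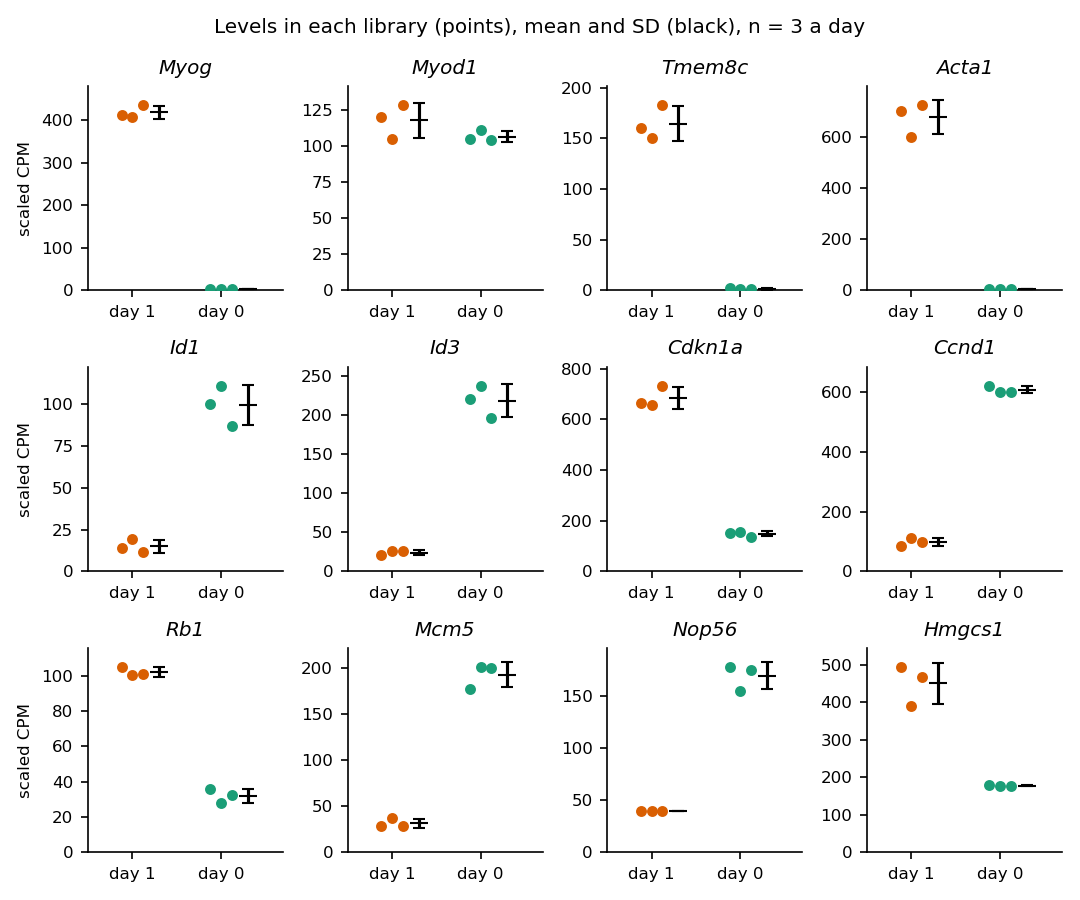
Scaled CPM of 12 genes in each of the 3 libraries of day 1 (orange, left) and day 0 (green, right), with the mean and SD in black and the y axis from 0. Myog, Tmem8c and Acta1 are near 0 on day 0, Myod1 overlaps between the days, and Id1, Id3, Ccnd1, Mcm5 and Nop56 are lower in every day 1 library.

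Most genes of calcium handling rose, with 3 exceptions. In excitation-contraction coupling 23 genes were in the table and 19 were tested, with 16 higher, 1 lower and 2 that did not pass, and a median of 2.30. Casq2, the calcium-storing calsequestrin, had 87.7, 78.6 and 97.9 scaled CPM on day 1 and 1.75, 0.926 and 0.990 on day 0. Srl, which encodes sarcalumenin, had 182, 173 and 181 on day 1 and 2.92, 6.90 and 3.96 on day 0, and Atp2a1, the calcium pump of fast muscle, had 64.5, 60.1 and 65.8 on day 1 and 1.21, 2.31 and 2.08 on day 0. All 3 rose, while Atp2a2, the pump that most cells make, had 418, 365 and 416 scaled CPM on day 1 and 393, 388 and 382 on day 0 and did not pass. The channel genes also rose. Ryr1, the calcium release channel, had 17.1, 23.6 and 18.1 scaled CPM on day 1 and 0.135, 0.295 and 1.46 on day 0, and Cacna1s, the voltage sensor, had 20.2, 15.4 and 15.4 on day 1 and 0.990, 0.0842 and 0.208 on day 0. Fkbp1a, a ryanodine receptor binder found in many cell types, fell by 0.47, and Asph, which also encodes the junction protein junctin, averaged 106 ± 5.86 scaled CPM on day 1 and 105 ± 5.76 on day 0 and did not pass.

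The acetylcholine receptor subunits differed in how far they moved. Of 14 receptor and junction genes in the table, 11 were tested, with 10 higher, 0 lower, 1 that did not pass and a median of 1.45. Chrna1, the alpha subunit, was already present and had 1012, 944 and 1016 scaled CPM on day 1 and 405, 446 and 432 on day 0, a change of 1.21 ± 0.07 (SE, adjusted p = 2.0e-12). Chrnd, the delta subunit, averaged 109 ± 9.69 scaled CPM on day 1 and 19.8 ± 0.758 on day 0, a change of 2.40. Chrng, the subunit of the fetal receptor, had 75.5, 72.1 and 72.3 scaled CPM on day 1 and 0.495, 0.421 and 0.729 on day 0. Chrng passed the level filter only through its day 1 values, so its direction was fixed in advance. All 3 subunits were higher on day 1, and only Chrng was near 0 on day 0. Lrp4, the muscle receptor of agrin, changed by 2.41, and Dok7, an adaptor of the kinase MuSK, by 1.74.

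Most muscle energy enzymes and genes of the dystrophin complex rose. Of 21 energy enzymes in the table, 15 were tested, with 12 higher, 2 lower, 1 that did not pass and a median of 1.19. Ckm, muscle creatine kinase, had 59.6, 43.2 and 68.1 scaled CPM on day 1, against 0.225, 0.379 and 0.0521 on day 0. Pygm, glycogen phosphorylase, had 11.9, 10.9 and 13.8 scaled CPM on day 1, against 0.0900, 0.210 and 0.104 on day 0, and Mb, myoglobin, had 4.39, 3.36 and 5.97 on day 1, against 0.315, 0.210 and 0.313 on day 0. These were at a few reads on day 0, and the enzymes that fell were well expressed there. Pdk4, a kinase that restrains pyruvate oxidation, averaged 13.3 ± 1.58 scaled CPM on day 1 and 46.2 ± 6.39 on day 0, and Eno3, muscle enolase, averaged 368 ± 41.6 scaled CPM on day 1 and 471 ± 8.45 on day 0. For the dystrophin complex and its matrix receptors, 13 of 14 genes were tested, with 10 higher, 1 lower, 2 that did not pass and a median of 1.77. Sgca, the alpha sarcoglycan, changed by 3.30. Lama2, the laminin chain of muscle basement membrane, had 103, 76.6 and 101 scaled CPM on day 1 and 15.3, 12.7 and 18.3 on day 0. The one that fell, by 0.65, was Lmna, a nuclear lamin gene counted in this list though not part of the complex or a receptor.

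Regulators of the cell cycle changed in both directions, with p21, p27 and p57 up and cyclin D1 down. Of 26 CDK inhibitors, cyclins and pocket protein genes in the table, 24 were tested. Of these 9 were higher (37.5%, against 27.5% of all genes tested), 12 were lower (50%, against 25.6%) and 3 did not pass, with a median of -0.24. Cdkn1a, the inhibitor p21, had 664, 658 and 734 scaled CPM on day 1, against 151, 157 and 137 on day 0, a change of 2.20 ± 0.08 (SE, adjusted p = 4.5e-16). Cdkn1b, the inhibitor p27, averaged 73.1 ± 2.71 scaled CPM on day 1 and 40.5 ± 4.42 on day 0, and Cdkn1c, the inhibitor p57, 10.2 ± 2.48 scaled CPM on day 1 and 0.923 ± 0.381 on day 0. Every day 1 library exceeded every day 0 library for each of the 3 inhibitors. Rb1, the retinoblastoma gene, had 105, 100.3 and 101 scaled CPM on day 1 and 35.7, 28.0 and 32.4 on day 0, whereas its relative Rbl1 had 21.9, 14.0 and 17.3 on day 1 and 60.9, 51.8 and 68.3 on day 0. The pocket protein genes moved in opposite directions, by 1.65 and -1.72, and so did cyclins D1 and D3. Ccnd1, the growth factor dependent cyclin D1, had 86.7, 111 and 97.4 scaled CPM on day 1, against 622, 601 and 601 on day 0, a change of -2.62 ± 0.11 (SE, adjusted p = 1.3e-15). Ccnd3, the cyclin D3 that differentiating muscle keeps, had 264, 274 and 264 scaled CPM on day 1, against 93.9, 119 and 131 on day 0, a change of 1.23 ± 0.10 (SE, adjusted p = 2.3e-10). Among E2F factors, E2f2 rose by 1.80, while E2f1 changed by -0.82, E2f7 by -1.70 and E2f8 by -1.15. Cdk6 averaged 100.1 ± 20.2 scaled CPM on day 1 and 100.1 ± 5.53 on day 0 and did not pass.

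Every gene of DNA replication and of mitosis that was listed fell. All 36 replication and G1/S genes were in the table and tested, and 36 fell, with changes of -2.88 to -1.20 and a median of -1.89. All 35 mitosis and spindle genes were tested too, and 35 fell, with changes of -2.64 to -1.69 and a median of -2.13. The replication genes took 0.117% ± 0.0110 of the reads on day 1 and 0.444% ± 0.00635 on day 0, and the mitosis genes took 0.125% ± 0.0216 of the reads on day 1 and 0.568% ± 0.00174 on day 0, each with an exact permutation p of 0.1. Mcm5, of the replicative helicase, had 28.4, 37.2 and 29.0 scaled CPM on day 1 and 176, 201 and 199.8 on day 0. Rrm2, the small subunit of ribonucleotide reductase, had 138, 139 and 106 on day 1 and 633, 644 and 689.9 on day 0, and Tk1, thymidine kinase, had 20.7, 20.7 and 13.7 on day 1 and 114, 130.3 and 106 on day 0. In all 3 the highest day 1 library was under the lowest day 0 library by more than 2-fold. Mcm10 showed the steepest fall of the replication genes, -2.88 ± 0.25 (SE, adjusted p = 9.4e-10).

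The mitotic genes kept a low level on day 1 and did not reach 0. Ccnb1, cyclin B1, had 35.8, 59.8 and 49.0 scaled CPM on day 1 and 252, 269.9 and 259 on day 0, a change of -2.44 ± 0.14 (SE, adjusted p = 5.4e-13). Aurka, the spindle pole kinase, had 13.0, 23.6 and 21.1 on day 1 and 124, 127 and 112 on day 0, and Plk1, the mitotic kinase, had 23.8, 28.7 and 16.9 on day 1 and 130.1, 140.3 and 130.2 on day 0. Mki67, the proliferation antigen, had 11.3, 12.9 and 7.73 scaled CPM on day 1 and 47.8, 44.4 and 46.2 on day 0. Mitotic transcripts were thus still measured in each day 1 library. Mybl2, the B-MYB factor that drives mitotic genes, also fell, with 4.63, 4.63 and 1.85 scaled CPM on day 1 and 41.8, 51.1 and 40.9 on day 0.

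The promoter of Aurka is shown because it holds the pair of motifs shared by many genes of this list, the CCAAT box and the cell cycle homology region (CHR), spelled TTTGAA. It is from RefSeq (GRCm38.p6, chr2:172370521-172370820, minus strand), with the motifs in capitals.
Aurka: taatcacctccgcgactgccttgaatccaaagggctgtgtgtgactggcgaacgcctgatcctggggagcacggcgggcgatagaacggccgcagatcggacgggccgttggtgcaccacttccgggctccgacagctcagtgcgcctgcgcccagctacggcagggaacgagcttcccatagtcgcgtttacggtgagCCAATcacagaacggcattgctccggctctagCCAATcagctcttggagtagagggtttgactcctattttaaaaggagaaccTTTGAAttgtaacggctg
CCAAT stood 51 and 19 bases before the start and TTTGAA began 32 bases after it. Of 29 mitosis genes with a promoter in the RefSeq table, 22 (75.9%) held TTTGAA on either strand, against 14.0% of the 8869 genes tested that have a promoter and 20.2% of all 27025 genes. TTTGAA was in 6.25% to 25% in the other lists searched. CCAAT was in 23 of 29 (79.3%), against 43.5% of genes tested, and in 20 of 27 (74.1%) of the ATF4 list, so that it is not particular to the mitosis genes. For replication genes the E2F motif TTTCCCGC was in 4 of 30 (13.3%), against 2.48% of genes tested and 2 of 25 (8%) ribosome biogenesis promoters.

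Growth factor signalling genes fell in part. Of 19 feedback and ligand genes of the ERK pathway 18 were tested, with 3 higher, 13 lower, 2 that did not pass and a median of -0.62. The ligands of the EGF receptor family were the clearest. Hbegf had 4.05, 6.80 and 6.52 scaled CPM on day 1 and 36.6, 35.2 and 41.3 on day 0, Ereg had 6.44, 4.21 and 7.02 on day 1 and 34.6, 33.5 and 39.1 on day 0, and Areg had 0, 2.79 and 0.925 on day 1 and 30.5, 23.6 and 21.0 on day 0. No day 1 value of the 3 ligands came near a day 0 value. Dusp5, a phosphatase of nuclear ERK, changed by -2.04 ± 0.24 (SE, adjusted p = 1.5e-07). Epha2, an ephrin receptor, averaged 57.4 ± 3.99 scaled CPM on day 1 and 172 ± 21.7 on day 0 and fell, while the ERK antagonists Spry1 and Spry2 rose by 2.99 and 0.69.

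The immediate early genes, which serum induces within minutes, gave no common direction. Of 22 in the table, 21 were tested, with 8 higher (38.1%, against 27.5% of all genes tested), 8 lower (38.1%, against 25.6%), 5 that did not pass and a median of 0.10. Myc, the growth regulator, had 12.9, 10.6 and 15.6 scaled CPM on day 1 and 37.6, 52.5 and 40.2 on day 0, a change of -1.66 ± 0.19 (SE, adjusted p = 9.1e-08). Fosl1, an AP-1 subunit, had 6.21, 6.84 and 7.10 scaled CPM on day 1 and 57.7, 80.4 and 73.5 on day 0, a change of -3.20 ± 0.23 (SE, adjusted p = 5.4e-11). Egr1, a zinc finger factor, went the other way with 120.2, 115 and 114 scaled CPM on day 1 and 65.3, 63.2 and 71.9 on day 0, a change of 0.79 ± 0.10 (SE, adjusted p = 3.4e-07). Fos, at 2.93, 4.63 and 2.69 scaled CPM on day 1 and 0.945, 0.673 and 1.15 on day 0, and the antiproliferative gene Btg2, at 50.7 ± 5.24 scaled CPM on day 1 and 21.1 ± 1.25 on day 0, also rose. Junb had 55.7, 58.1 and 40.3 scaled CPM on day 1 and 51.9, 79.9 and 57.3 on day 0 and did not pass.

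Most genes of the FOXO and insulin signal list, many of which insulin holds down through FOXO factors, rose. Of 20 in the table, 19 were tested, with 15 higher, 1 lower, 3 that did not pass and a median of 1.44. Fbxo32, the ubiquitin ligase atrogin-1, had 196, 127 and 179 scaled CPM on day 1 and 23.6, 16.6 and 20.1 on day 0. Txnip, an inhibitor of glucose uptake, had 149.8, 139 and 168 on day 1 and 29.3, 33.8 and 24.3 on day 0, and Pik3ip1, a brake on PI3 kinase, had 15.8, 18.6 and 14.6 on day 1 and 0.315, 1.09 and 0.365 on day 0. These did not overlap between the days. Irs2, a docking protein of the insulin receptor, averaged 16.9 ± 5.51 scaled CPM on day 1 and 7.22 ± 2.29 on day 0, and Igf1r, the IGF receptor, 46.1 ± 5.71 scaled CPM on day 1 and 29.8 ± 4.35 on day 0. Eif4ebp1, the translation inhibitor downstream of mTOR, was the 1 that fell, by 0.59.

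The IGF ligand genes and Igfbp5 rose. Of 23 IGF axis and secreted signal genes 20 were tested, with 12 higher (60%, against 27.5% of all genes tested) and 4 lower (20%, against 25.6%). A further 4 did not pass, and the median was 0.57. Igfbp5, the IGF-binding protein of differentiating muscle, had 7079.8, 5854 and 6946 scaled CPM on day 1, against 1019, 977 and 977 on day 0, a change of 2.73 ± 0.10 (SE, adjusted p = 1.8e-16). The list took 0.879% ± 0.0689 of the reads on day 1 and 0.248% ± 0.00671 on day 0, an exact permutation p of 0.1. Most of the day 1 share was Igfbp5, since the whole list summed to 8828, 7656 and 8720.4 scaled CPM on day 1. On day 0 the list summed to 2388, 2433 and 2318 scaled CPM, and Igfbp5 was not most of it. Igf2, the autocrine ligand of myoblasts, had 28.7, 15.1 and 25.2 scaled CPM on day 1 and 0.675, 1.56 and 0.104 on day 0, and Igf1 had 7.67, 3.40 and 6.77 on day 1 and 0, 0.0421 and 0.0521 on day 0. Both ligands were near 0 on day 0 and had values in all 3 day 1 libraries. Inhba, which encodes the activin subunit that opposes muscle growth, had 4.16, 4.66 and 7.23 scaled CPM on day 1 and 36.7, 28.9 and 30.3 on day 0. Vegfa, the vascular growth factor, averaged 42.6 ± 1.48 scaled CPM on day 1 and 94.9 ± 5.53 on day 0, and fell by 1.13. Igfbp2 averaged 507 ± 53.04 scaled CPM on day 1 and 523 ± 78.3 on day 0 and Hgf 69.9 ± 7.82 scaled CPM on day 1 and 69.3 ± 2.99 on day 0, and neither passed.

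The neighbour of Igf2 on the chromosome, the noncoding RNA H19, rose with it. Of 18 imprinted and noncoding RNA genes in the table, 11 were tested, with 8 higher, 1 lower, 2 that did not pass and a median of 1.21. H19 had 2707, 2388 and 3075 scaled CPM on day 1 and 222, 212 and 185 on day 0, a change of 3.71 ± 0.11 (SE, adjusted p = 2.9e-18). Mest, an imprinted gene of the paternal allele, had 216, 166 and 217 scaled CPM on day 1 and 8.95, 8.67 and 10.9 on day 0, a change of 4.25 ± 0.12 (SE, adjusted p = 5.1e-19). Cdkn1c, the imprinted p57 gene named above, belongs to the same set. The whole list took 0.379% ± 0.0449 of the reads on day 1 and 0.0565% ± 0.000883 on day 0, of which H19 was the main part on day 1, at the values above against list sums of 3672, 3162 and 4043 scaled CPM. Neat1 averaged 3.68 ± 1.02 scaled CPM on day 1 and 4.26 ± 0.191 on day 0 and did not pass.

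Every listed gene of ribosome biogenesis fell, and so did 18 of the ribosomal protein genes. All 30 biogenesis genes were tested and 30 fell, 22 of them by 2-fold or more (9.16% of all genes did), with a median of -1.22. They took 0.273% ± 0.00686 of the reads on day 1 and 0.586% ± 0.0175 on day 0. Ncl, the nucleolar protein nucleolin, had 512, 391 and 514 scaled CPM on day 1 and 1305, 1110.1 and 1226 on day 0. Nop56, of the box C/D snoRNP, had 39.9, 39.9 and 39.8 on day 1 and 179, 155 and 176 on day 0, and Dkc1, of the H/ACA snoRNP, had 20.9, 25.5 and 19.6 on day 1 and 112, 108 and 116 on day 0. The replicates were close in all 3, and the days were apart, with changes of -1.37, -2.06 and -2.30. Of the 33 cytosolic ribosomal protein genes tested, 18 fell and 15 did not pass, with a median of -0.25. Rpl27 had the largest fall of these, -1.19 ± 0.12 (SE, adjusted p = 6.8e-09). Rpl7 averaged 1311 ± 105 scaled CPM on day 1 and 1350.2 ± 28.1 on day 0 and Rpl5 1181 ± 20.4 scaled CPM on day 1 and 1294 ± 34.2 on day 0, and neither passed. Ribosomal protein genes have many processed copies in the genome, and how reads were shared among copies is not given in the sources used here.

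Enzymes that supply nucleotides and polyamines fell with Myc, while 2 antagonists of MYC rose. Of 22 in the table, 21 were tested, with 2 higher, 16 lower, 3 that did not pass and a median of -1.31. Odc1, which makes putrescine, had 57.3, 76.6 and 57.8 scaled CPM on day 1 and 323, 316 and 313 on day 0. Shmt2 and Mthfd2, of mitochondrial one-carbon metabolism, changed by -2.28 and -2.17. The 2 that rose are antagonists of MYC for its partner MAX. Mxd4 had 130.4, 109.6 and 119 scaled CPM on day 1 and 26.5, 17.7 and 23.7 on day 0, and Mxi1 averaged 44.0 ± 1.87 scaled CPM on day 1 and 24.9 ± 3.12 on day 0. Max itself had 54.7, 52.0 and 65.2 scaled CPM on day 1 and 60.5, 52.1 and 52.0 on day 0 and did not pass. The MYC E-box CACGTG, a form of CANNTG, was in 7 of 25 ribosome biogenesis promoters (28%), against 12.1% of genes tested and 8.09% of all genes. It was also in 4 of 16 promoters (25%) of the sterol list, most of whose genes rose, and in 0% to 14.8% in the other lists searched.

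Most genes of sterol synthesis rose and 0 fell. All 24 genes of sterol synthesis and uptake were tested, with 21 higher, 0 lower and 3 that did not pass, and a median of 0.96. They took 0.406% ± 0.00458 of the reads on day 1 and 0.194% ± 0.000523 on day 0, an exact permutation p of 0.1. Hmgcs1, which makes HMG-CoA for cholesterol synthesis, had 495, 389.7 and 468 scaled CPM on day 1 and 178, 177 and 177 on day 0. Fdft1, squalene synthase, had 239, 260.0 and 262 on day 1 and 69.1, 67.7 and 71.3 on day 0, and Mvd, of the mevalonate branch, had 43.6, 34.9 and 41.7 on day 1 and 8.01, 13.8 and 9.74 on day 0. In these 3 the days stood apart, with changes of 1.33, 1.85 and 1.86. Insig1, which retains the sterol sensor in the endoplasmic reticulum, changed by 1.60 ± 0.11 (SE, adjusted p = 3.0e-11).

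The promoter of Hmgcs1 is shown because genes of this pathway are known to carry sterol response elements beside CCAAT boxes. It is from RefSeq (GRCm38.p6, chr13:119690101-119690400, plus strand). Capitals mark CCAAT, here in its reverse form ATTGG, and one spelling of the sterol element, CACNCCAC.
Hmgcs1: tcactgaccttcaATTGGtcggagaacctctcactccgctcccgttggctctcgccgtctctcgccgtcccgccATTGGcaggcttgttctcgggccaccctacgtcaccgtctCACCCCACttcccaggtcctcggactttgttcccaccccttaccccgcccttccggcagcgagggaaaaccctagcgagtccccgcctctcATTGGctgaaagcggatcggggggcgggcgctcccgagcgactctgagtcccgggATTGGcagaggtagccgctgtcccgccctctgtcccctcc
CACCCCAC began 136 bases before the start, with ATTGG at 237, 176 and 45 bases before the start and 10 after it. CCAAT on either strand was in 16 of 16 promoters of the pathway (100%), against 43.5% of genes tested. CACNCCAC was in 2 of 16 (12.5%), against 7.59% of genes tested and 4 of 20 (20%) in the Z-disc, M-band and assembly list, and other spellings of the element were not searched.

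Lipid genes outside the sterol pathway rose less evenly. Of 19 genes of fatty acid synthesis and lipid handling 17 were tested, with 11 higher, 2 lower, 4 that did not pass and a median of 0.31. Scd1, a desaturase that makes oleate, averaged 1348 ± 61.1 scaled CPM on day 1 and 367 ± 13.9 on day 0. Its relative Scd2 averaged 2211 ± 69.6 scaled CPM on day 1 and 1065 ± 45.0 on day 0. Lpin1, a phosphatidate phosphatase, had 16.4, 16.8 and 13.0 scaled CPM on day 1 and 6.88, 1.94 and 1.56 on day 0, and day 0 replicate 1 stood above the other two. Pparg, the regulator of fat cells, had 6.09, 9.52 and 10.3 scaled CPM on day 1 and 32.3, 31.0 and 28.4 on day 0, and fell by 1.74. Acaca, the first enzyme of fatty acid synthesis, averaged 131 ± 6.07 scaled CPM on day 1 and 140.4 ± 15.9 on day 0 and did not pass.

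Targets of the oxidative stress factor NRF2 were mostly lower on day 1, with no chromate in either group. Of 26 targets 25 were found in the table and 24 were tested, with 4 higher, 17 lower, 3 that did not pass and a median of -0.85. They took 0.491% ± 0.0382 of the reads on day 1 and 0.929% ± 0.0454 on day 0. Nqo1, a quinone reductase, had 20.4, 31.2 and 20.6 scaled CPM on day 1 and 153, 160.3 and 139 on day 0. Gclm, of glutathione synthesis, had 20.6, 25.0 and 27.6 on day 1 and 108, 111 and 100.5 on day 0, and Slc7a11, the cystine importer, had 1.04, 1.91 and 0.546 on day 1 and 16.8, 10.7 and 15.6 on day 0. Srxn1, which repairs peroxiredoxins, and Ftl1, the ferritin light chain, changed by -1.56 and -1.54. All 5 were lower in each day 1 library than in any day 0 library. Aldh3a1, an aldehyde dehydrogenase, and Gstm1, a glutathione transferase, rose instead, by 1.53 and 1.09.

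The promoter of Gclm is shown because it holds the short form of the antioxidant response element that NRF2 is known to bind, spelled TGACNNNGC. It is from RefSeq (GRCm38.p6, chr3:122245307-122245606, plus strand), and the capitals mark the element on the reverse strand.
Gclm: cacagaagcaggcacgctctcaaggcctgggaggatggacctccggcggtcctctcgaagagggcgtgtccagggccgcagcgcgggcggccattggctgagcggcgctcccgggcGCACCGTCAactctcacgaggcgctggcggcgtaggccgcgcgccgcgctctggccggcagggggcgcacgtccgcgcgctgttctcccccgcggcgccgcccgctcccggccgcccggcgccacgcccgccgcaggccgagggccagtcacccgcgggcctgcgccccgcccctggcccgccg
GCACCGTCA began 134 bases before the start. The motif was in 7 of 18 promoters of the list (38.9%), against 16.8% of genes tested and 14.0% of all genes. It was about as frequent in lists that are not NRF2 targets, in 3 of 8 acetylcholine receptor and junction promoters (37.5%), 9 of 27 of the ATF4 list (33.3%) and 4 of 16 of the sterol list (25%).

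The p53 targets changed in both directions. Of 24 in the table, 23 were tested, with 8 higher (34.8%, against 27.5% of all genes tested), 11 lower (47.8%, against 25.6%), 4 that did not pass and a median of -0.19. The arrest genes Cdkn1a, named above, and Trp53inp1 rose, Trp53inp1 to 63.3, 49.4 and 49.7 scaled CPM on day 1 against 11.5, 13.3 and 12.5 on day 0. Eda2r, a receptor of the TNF family, and Pmaip1, the BH3 protein NOXA, changed by 1.77 and 1.48. Other targets fell. Gdf15, a stress cytokine, had 2.04, 4.55 and 7.90 scaled CPM on day 1 and 19.2, 24.0 and 18.0 on day 0, and Aen, a nuclease, had 27.5, 23.0 and 24.8 on day 1 and 59.3, 65.9 and 67.3 on day 0. Sesn1 rose by 1.44, while its relative Sesn2, a target of ATF4 as well, changed by -1.15.

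Amino acid genes under ATF4 fell, while 2 disulfide isomerases of the endoplasmic reticulum did not pass. All 30 genes of the unfolded protein and ATF4 list were tested, with 1 higher, 17 lower, 12 that did not pass and a median of -0.43. Asns, asparagine synthetase, had 37.2, 39.9 and 47.3 scaled CPM on day 1 and 220.1, 239 and 209 on day 0, a change of -2.40 ± 0.10 (SE, adjusted p = 1.3e-15). Phgdh, the first enzyme of serine synthesis, had 63.8, 78.9 and 65.7 scaled CPM on day 1 and 419, 487 and 409 on day 0, a change of -2.64 ± 0.10 (SE, adjusted p = 1.6e-16). Psph, the last enzyme of that pathway, changed by -2.20, and Aldh1l2, of mitochondrial folate metabolism, by -3.18. Trib3, a pseudokinase that ATF4 induces, had 1.04, 1.61 and 1.93 scaled CPM on day 1 and 10.6, 16.5 and 14.8 on day 0. Every day 1 library was below every day 0 library for each of these 5 genes. Pdia3, a disulfide isomerase, averaged 565 ± 33.5 scaled CPM on day 1 and 628 ± 22.0 on day 0, and Pdia4, another, 169 ± 9.37 scaled CPM on day 1 and 187 ± 8.03 on day 0, and neither passed. Dnajb9, a cochaperone of the lumen, was the 1 that rose, by 1.01.

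The promoter of Asns is shown because it is known for its amino acid response element, spelled TGATGNAA here. It is from RefSeq (GRCm38.p6, chr6:7693160-7693459, minus strand), with the match in capitals.
Asns: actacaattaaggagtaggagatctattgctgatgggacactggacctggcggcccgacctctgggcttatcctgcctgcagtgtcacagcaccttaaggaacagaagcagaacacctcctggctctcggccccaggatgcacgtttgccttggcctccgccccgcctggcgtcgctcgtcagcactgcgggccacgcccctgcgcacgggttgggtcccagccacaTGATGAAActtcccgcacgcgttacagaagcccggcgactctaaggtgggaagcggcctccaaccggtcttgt
TGATGAAA began 23 bases before the start. The motif was in 6 of 27 promoters of the list (22.2%), against 2.57% of genes tested and 4.51% of all genes, and in 0% to 12.5% in the other lists searched.

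Heat shock genes fell in part, with the mitochondrial chaperonin gene falling most. Of 17 in the table, 15 were tested, with 1 higher, 7 lower, 7 that did not pass and a median of -0.15. Hspd1, the mitochondrial chaperonin, had 365, 354 and 361 scaled CPM on day 1 and 1181, 1157 and 1204 on day 0, and its partner Hspe1 had 139, 154 and 155 on day 1 and 322, 305 and 307 on day 0. Hsp90aa1, the inducible cytosolic chaperone, averaged 1012 ± 44.3 scaled CPM on day 1 and 2073 ± 229 on day 0 and fell, whereas Hsp90ab1, the constitutive one, averaged 3376 ± 298 scaled CPM on day 1 and 3627 ± 122 on day 0 and did not pass. Hspb2, a small heat shock protein of muscle, rose to 12.5, 13.2 and 12.1 scaled CPM on day 1, against 3.01, 3.58 and 4.01 on day 0.

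**Figure D3:**
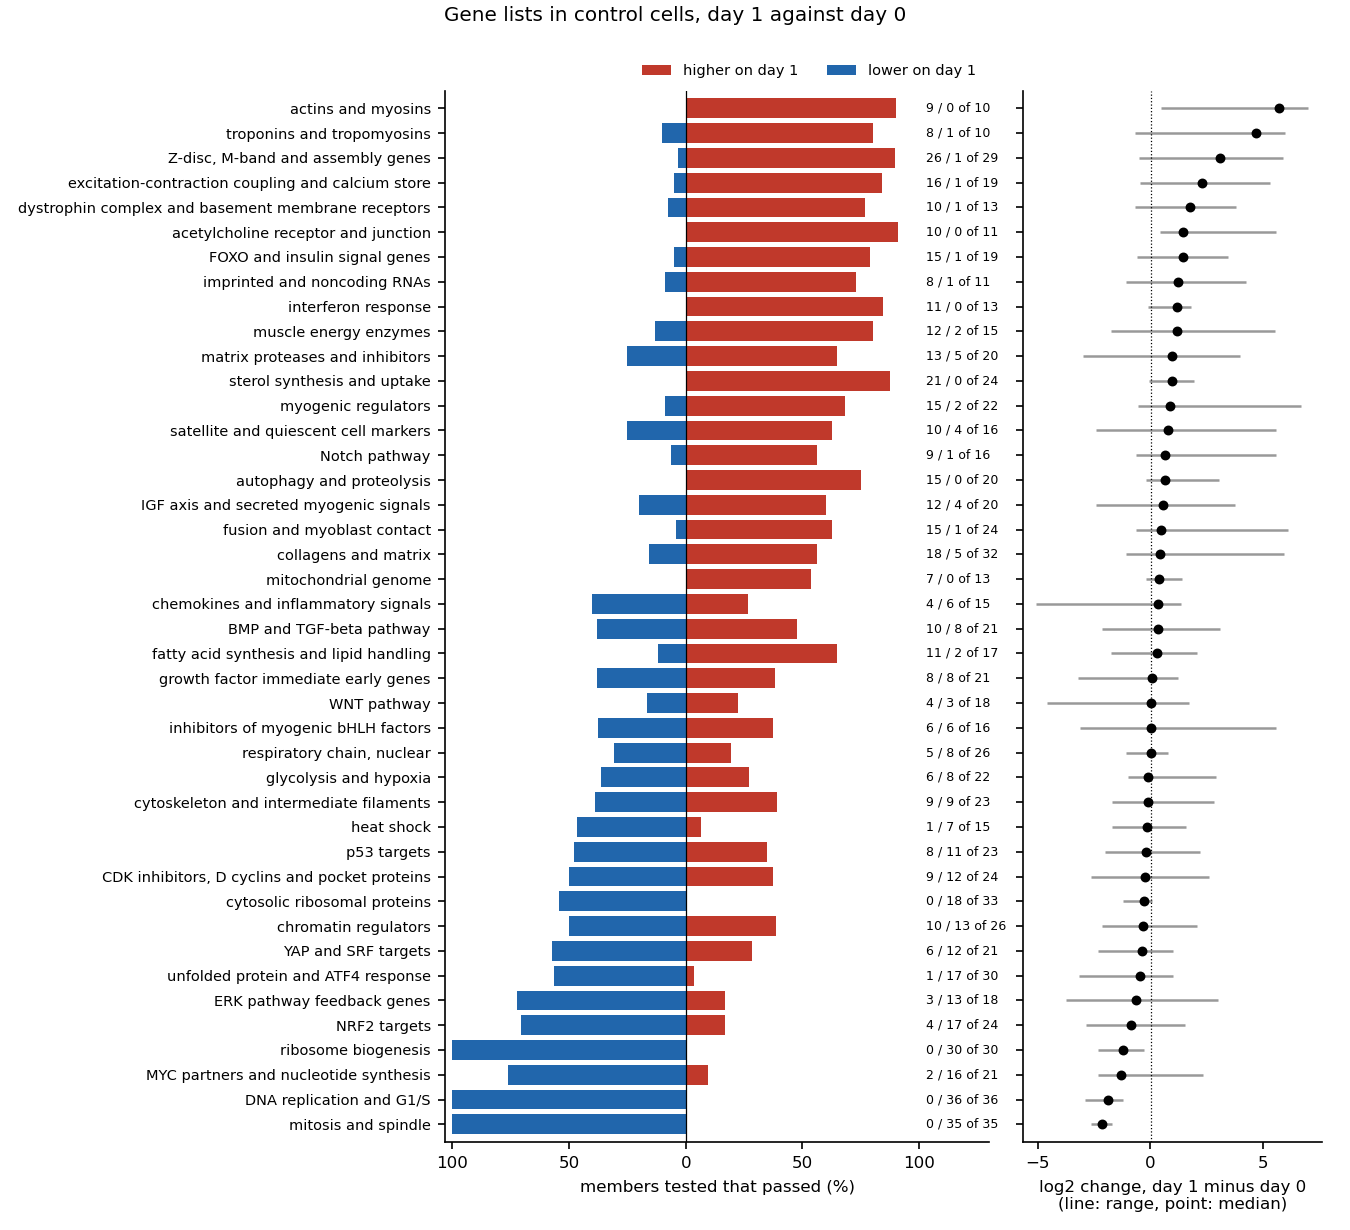
For 42 gene lists, bars give the percent of tested members that were higher (red, to the right) or lower (blue, to the left) on day 1, with the counts beside them. On the right are each list's median log2 change (point) and range (line), day 1 minus day 0, with the all-gene median dotted. Actins and myosins stand at the top with a median of 5.72 and mitosis genes at the bottom with -2.13.

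Several fibrillar collagen genes, Col6a1 and Col6a2 rose, and of the matrix genes tested decorin rose most. Of 37 collagen and matrix genes in the table, 32 were tested, with 18 higher (56.3%, against 27.5% of all genes tested) and 5 lower (15.6%, against 25.6%). A further 9 did not pass, and the median was 0.45. The list took 2.01% ± 0.0904 of the reads on day 1 and 1.24% ± 0.0167 on day 0. Col3a1 had 3260.0, 2755 and 3038 scaled CPM on day 1 and 627, 651 and 620.1 on day 0, and Col1a1, the main fibrillar chain, had 113, 91.9 and 95.3 on day 1 and 42.1, 34.5 and 26.3 on day 0. Col6a1 and Col6a2, of the microfibrils around muscle cells, changed by 2.56 and 2.96. Dcn, the collagen-binding proteoglycan decorin, had 172, 133 and 167 scaled CPM on day 1, against 0.720, 1.98 and 2.14 on day 0, a change of 5.96 ± 0.16 (SE, adjusted p = 4.7e-19). Decorin was among the 15 largest rises, beside muscle genes. Tnc, which encodes the matrix protein tenascin C, averaged 222 ± 25.0 scaled CPM on day 1 and 464 ± 9.40 on day 0 and fell. Nid1, a basement membrane linker, and Lox, a collagen crosslinker, fell by 0.62 and by 0.46. Col4a1, of the basement membrane, had 111, 120.2 and 116 scaled CPM on day 1 and 101, 106 and 92.1 on day 0 and did not pass, and Thbs1 averaged 558 ± 42.2 scaled CPM on day 1 and 586 ± 9.44 on day 0.

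Markers of fibroblasts are not separate from these genes, since most of their summed level on both days was Col3a1. The summed level of 10 fibroblast markers, 4 of which are also in the matrix list, was 3661 to 4208 scaled CPM on day 1 and 912 to 966 on day 0. Of these 7 were tested, with 5 higher, 0 lower and 2 that did not pass, while Thy1 and Tcf21 were at 0 in all 6 libraries. Their part in the matrix result was not tested.

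Matrix proteases and their inhibitors also changed. Of 23 in the table, 20 were tested, with 13 higher (65%, against 27.5% of all genes tested) and 5 lower (25%, against 25.6%). A further 2 did not pass, and the median was 0.99. The share that fell was thus about that of all genes. Mmp2, gelatinase A, had 196, 212 and 210.3 scaled CPM on day 1 and 36.6, 28.5 and 28.8 on day 0, and Adamts5, which cleaves proteoglycans, had 55.7, 32.9 and 54.9 on day 1 and 3.55, 3.20 and 3.65 on day 0. Both rose, and Plaur fell. Plaur, the urokinase receptor, had 15.8, 28.3 and 22.3 scaled CPM on day 1 and 92.3, 94.0 and 78.8 on day 0. The metalloprotease inhibitors Timp1 and Timp3 changed by -1.02 and -0.84, and Adam12, a protease of fusing myoblasts, by -1.46.

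Targets of YAP and SRF, which read tension and actin polymerization, leaned downward. All 21 were tested, with 6 higher (28.6%, against 27.5% of all genes tested) and 12 lower (57.1%, against 25.6%). A further 3 did not pass, and the median was -0.37. Ctgf had 31.4, 18.7 and 23.2 scaled CPM on day 1 and 127, 115 and 125 on day 0, and Cyr61 had 45.4, 50.8 and 54.7 on day 1 and 130.2, 135 and 129 on day 0. Tagln, a smooth muscle actin-binding protein, had 47.1, 41.5 and 46.1 scaled CPM on day 1 and 138, 159 and 152 on day 0. These 3 fell, with no overlap between the days, while Acta2, smooth muscle actin, averaged 989.8 ± 47.6 scaled CPM on day 1 and 767 ± 44.9 on day 0 and rose. Actb, cytoplasmic actin, averaged 2280.1 ± 181 scaled CPM on day 1 and 3809.6 ± 176 on day 0, a change of -0.74 ± 0.08 (SE, adjusted p = 4.3e-08).

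Of the Notch genes and satellite cell markers tested, 9 of 16 and 10 of 16 rose. Of 20 Notch genes in the table, 16 were tested, with 9 higher (56.3%, against 27.5% of all genes tested) and 1 lower (6.25%, against 25.6%). A further 6 did not pass, and the median was 0.66. Among receptors, Notch3 had 215, 218 and 221 scaled CPM on day 1 and 30.9, 37.2 and 29.5 on day 0, a change of 2.71 ± 0.11 (SE, adjusted p = 8.5e-16). Among ligands, Dll1 rose to 19.2, 12.2 and 13.2 scaled CPM on day 1 against 2.02, 0.505 and 0.0521 on day 0, while Jag2 fell by 0.63. Among targets and modifiers, Heyl (above), Hes6, at 63.6 ± 1.49 scaled CPM on day 1 and 21.4 ± 1.60 on day 0, and Dtx4, at 136 ± 24.1 scaled CPM on day 1 and 10.0 ± 2.16 on day 0, rose. Rbpj, the DNA-binding partner of the receptors, had 117, 103 and 115 scaled CPM on day 1 and 110.0, 111 and 111 on day 0 and did not pass.

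Of 20 markers of satellite and quiescent cells 16 were tested, with 10 higher (62.5%, against 27.5% of all genes tested) and 4 lower (25%, against 25.6%). A further 2 did not pass, and the median was 0.79. Vcam1, an adhesion molecule of quiescent satellite cells, had 247, 210.3 and 231 scaled CPM on day 1 and 84.7, 89.6 and 89.9 on day 0. Cxcr4, a chemokine receptor, had 99.5, 96.5 and 98.9 on day 1 and 24.1, 15.9 and 21.3 on day 0, and Fgfr4, the FGF receptor of muscle, had 31.6, 20.2 and 27.9 on day 1 and 4.63, 1.43 and 2.24 on day 0. Together with Pax7 (above), these did not overlap between the days. Cd24a and Sdc3, a surface antigen and a heparan sulfate proteoglycan, fell by 2.42 and by 1.07.

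Genes of the BMP and TGF-beta pathway changed in both directions. Of 24 genes 21 were tested, with 10 higher (47.6%, against 27.5% of all genes tested), 8 lower (38.1%, against 25.6%), 3 that did not pass and a median of 0.33. The list took 0.153% ± 0.00760 of the reads on day 1 and 0.157% ± 0.00898 on day 0 (exact permutation p = 0.6). Smad7 and Smad9, an inhibitory and a BMP-responsive SMAD, changed by -2.13 and -1.32. The antagonists differed, with Chrdl1 at 10.7, 7.15 and 11.3 scaled CPM on day 1 and 0.360, 0 and 0.313 on day 0, and Grem1 at 179, 209.6 and 208 on day 1 and 457, 359 and 416 on day 0. Chrdl1 rose and Grem1 fell. Tgfbr2, the type II receptor, averaged 253 ± 13.5 scaled CPM on day 1 and 81.6 ± 6.66 on day 0 and rose, and Ltbp1, which stores the ligand in the matrix, fell by 1.28. The ID genes, which BMP signalling induces, are described above.

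Of 25 WNT pathway genes 18 were tested, with 4 higher (22.2%, against 27.5% of all genes tested), 3 lower (16.7%, against 25.6%), 11 that did not pass and a median of 0.04. Lgr6, a receptor for R-spondins, was the exception in size, with 9.17, 5.58 and 6.26 scaled CPM on day 1 and 201, 176 and 184 on day 0, a change of -4.58 ± 0.21 (SE, adjusted p = 1.5e-14). Dkk3 and Tcf7l1 rose by 1.71 and by 0.99. The receptor gene Fzd7 averaged 73.7 ± 6.14 scaled CPM on day 1 and 77.9 ± 7.24 on day 0, and Fzd1 47.2 ± 3.95 scaled CPM on day 1 and 45.9 ± 2.82 on day 0, and neither passed.

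Genes of energy metabolism were called about as often as genes in general, of which 27.5% were higher and 25.6% lower. Of 23 genes of glycolysis and hypoxia 22 were tested, with 6 higher, 8 lower, 8 that did not pass and a median of -0.10. Ldha, lactate dehydrogenase A, had 737, 873 and 774 scaled CPM on day 1 and 1224, 1389 and 1219.5 on day 0, and Hk2, the insulin-responsive hexokinase, had 54.0, 34.1 and 39.8 on day 1 and 79.9, 83.5 and 84.4 on day 0. Slc2a1, the basal glucose transporter, fell by 0.76, and Pdk1, which restrains pyruvate oxidation, rose by 1.12. Gapdh had 342, 421 and 401 scaled CPM on day 1 and 421, 454 and 387 on day 0, and Tpi1 averaged 709.9 ± 54.5 scaled CPM on day 1 and 758 ± 62.5 on day 0. Neither of these glycolytic genes passed. Of the 26 nuclear genes of the respiratory chain, all tested, 5 were higher, 8 were lower and 13 did not pass, with a median of 0.03. Idh3a, counted in this list though an enzyme of the citric acid cycle, fell by 1.05.

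Transcripts of the mitochondrial genome rose in part. All 13 were tested, with 7 higher, 0 lower and 6 that did not pass, and a median of 0.38. The complex I subunit gene mt-Nd5 averaged 3039.6 ± 414 scaled CPM on day 1 and 1966 ± 317 on day 0, and mt-Nd4 averaged 3285 ± 257 scaled CPM on day 1 and 2316 ± 242 on day 0. Both rose, by 0.63 and by 0.51. mt-Nd6, the subunit encoded on the opposite strand, had 120.0, 96.1 and 152 scaled CPM on day 1 and 38.1, 43.9 and 51.7 on day 0, and whether reads were counted by strand is not given in the sources used here. mt-Co3 and mt-Cytb also rose, but did not pass under quantile normalization, with changes of 0.095 (adjusted p = 0.367, limma) and 0.256 (adjusted p = 0.0504, limma). mt-Co2 and mt-Nd2 overlapped between the days and did not pass.

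Most genes of autophagy and lysosomes rose and 0 fell. All 20 were tested, with 15 higher and 5 that did not pass, and a median of 0.66, and they took 0.668% ± 0.00814 of the reads on day 1 and 0.398% ± 0.0131 on day 0. Map1lc3a, an LC3 protein of the autophagosome, had 142, 139.8 and 159 scaled CPM on day 1 and 17.4, 22.5 and 11.8 on day 0. Lamp2, of the lysosomal membrane, had 721, 658 and 715 on day 1 and 301, 281 and 306 on day 0, and Nbr1, a cargo receptor, had 199, 175 and 190.0 on day 1 and 94.9, 61.9 and 76.0 on day 0. The mitophagy receptor Bnip3 changed by 1.22, while its relative Bnip3l, with a change of 0.14, did not pass. Atg5, of the conjugation machinery, averaged 50.7 ± 3.94 scaled CPM on day 1 and 57.4 ± 9.03 on day 0 and did not pass.

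Most interferon response genes tested rose and 0 fell. Of 24 in the table, 13 were tested, with 11 higher, 0 lower, 2 that did not pass and a median of 1.21. Ddx58, the RNA sensor RIG-I, had 20.7, 18.5 and 17.2 scaled CPM on day 1 and 3.10, 5.68 and 5.52 on day 0. Stat2, of the interferon receptor pathway, had 25.5, 15.3 and 23.7 on day 1 and 3.55, 10.2 and 9.43 on day 0, and Ifi27 had 65.6, 55.6 and 62.8 on day 1 and 26.0, 20.6 and 24.7 on day 0. Ifit2, a classic induced gene, had 18.6, 13.6 and 15.9 scaled CPM on day 1 and 15.4, 16.1 and 12.8 on day 0 and did not pass. Bst2, the virus-tethering protein, averaged 4.201 ± 1.26 scaled CPM on day 1 and 4.41 ± 0.202 on day 0 and was the other one that did not pass.

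The list of chemokines, inflammatory signals and NF-kB targets changed in both directions. Its 2 members among the 15 largest falls are proliferin genes and not chemokines. Of 24 in the table, 15 were tested, with 4 higher (26.7%, against 27.5% of all genes tested), 6 lower (40%, against 25.6%), 5 that did not pass and a median of 0.35. The proliferin gene Prl2c2, of the prolactin family, had 14.2, 18.6 and 8.53 scaled CPM on day 1, against 473, 421 and 525 on day 0. Prl2c3, another proliferin gene, had 54.5, 82.8 and 69.1 scaled CPM on day 1, against 1266, 1152 and 1336 on day 0. Both fell, by 5.06 and by 4.18, but they are near-identical copies, and how reads were split between them is uncertain. Csf1, the macrophage growth factor, averaged 52.3 ± 2.20 scaled CPM on day 1 and 156 ± 11.5 on day 0, and Ptgs2, the inducible cyclooxygenase, changed by -1.77 ± 0.23 (SE, adjusted p = 5.0e-07). Nfkb1 averaged 79.6 ± 4.79 scaled CPM on day 1 and 83.7 ± 7.04 on day 0 and did not pass, while its relatives Relb and Nfkb2 rose by 0.89 and by 0.79.

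Chromatin and cytoskeleton genes changed in both directions. Of 27 chromatin regulators 26 were tested, with 10 higher (38.5%, against 27.5% of all genes tested), 13 lower (50%, against 25.6%), 3 that did not pass and a median of -0.33. Hmga2, an architectural protein of growing cells, had 65.0, 71.1 and 69.3 scaled CPM on day 1, against 314, 283 and 330.0 on day 0. Its relative Hmga1 had 62.6, 54.3 and 47.5 on day 1, against 239, 264 and 205 on day 0. The histone variant H2afz changed by -1.94 ± 0.11 (SE, adjusted p = 7.9e-13). The 2 methyltransferases of Polycomb complex 2 crossed, with Ezh2 at 30.0, 26.1 and 34.5 scaled CPM on day 1 and 98.7, 67.4 and 77.7 on day 0, and Ezh1 at 59.7, 66.3 and 57.5 on day 1 and 15.0, 24.2 and 15.6 on day 0. Of 25 cytoskeleton genes 23 were tested, with 9 higher (39.1%, against 27.5% of all genes tested), 9 lower (39.1%, against 25.6%), 5 that did not pass and a median of -0.11. Des, the muscle intermediate filament desmin, had 1693, 1706 and 1721 scaled CPM on day 1 and 681, 864 and 666 on day 0. Lmnb1, a lamin of dividing cells, Stmn1, a microtubule destabilizer, and Tubb5, a beta tubulin, changed by -1.71, -1.25 and -1.22. Nes, nestin, averaged 924 ± 88.5 scaled CPM on day 1 and 832 ± 54.2 on day 0 and did not pass.

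Outside the lists, the 15 largest falls included surface receptors and enzymes of varied function. Ngfr, the low-affinity neurotrophin receptor, had 0.925, 1.99 and 0.841 scaled CPM on day 1 and 51.3, 55.5 and 40.7 on day 0, a change of -4.50 ± 0.30 (SE, adjusted p = 1.1e-11). Npr3, a clearance receptor of natriuretic peptides, had 0, 1.68 and 0.967 scaled CPM on day 1 and 28.1, 20.6 and 31.0 on day 0. Serpinb2, plasminogen activator inhibitor 2, had 0.231, 2.10 and 0.589 on day 1 and 24.8, 26.0 and 36.3 on day 0, and Acsbg1, an acyl-CoA synthetase, had 2.24, 1.91 and 3.15 on day 1 and 29.9, 36.3 and 26.3 on day 0. Bcat1, the cytosolic enzyme that transaminates branched-chain amino acids, was still measured on day 1, with 15.5, 19.7 and 13.6 scaled CPM against 170.4, 185 and 181 on day 0. The days did not overlap in any of these 5. Tigit and Selp, known from lymphocytes and from platelets and endothelium, were also among them, at 0.645 ± 0.523 scaled CPM on day 1 and 16.9 ± 1.34 on day 0 for Tigit and 1.33 ± 0.381 scaled CPM on day 1 and 21.8 ± 1.90 on day 0 for Selp, and both fell. Of the leukocyte markers 5 of 9 were at 0 in all 6 libraries, and their summed level was 0 to 1.39 scaled CPM on day 1 and 0 to 1.44 on day 0. Of the endothelial markers 6 of 9 were at 0, with a summed level of 1.35 to 2.14 scaled CPM on day 1 and 0.573 to 2.07 on day 0.

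Set beside the later control days, with 3 libraries each and as a description without a test, 4 muscle genes had day 1 means between those of days 0 and 2. On days 0, 1, 2 and 4, mean scaled CPM were 3.10, 419, 1229 and 1152 for Myog, 5.22, 678, 3933 and 5581 for Acta1, 1.41, 165, 756 and 1127 for Tmem8c and 7.21, 11.8, 105 and 752 for Mef2c. The Myog mean was highest on day 2, and the other 3 were highest on day 4. For Ccnd1 the means were 608, 98.3, 65.7 and 40.5, for Mcm5 192, 31.5, 41.4 and 24.3 and for Id1 99.7, 15.1, 16.7 and 15.9, so that most of the fall of these genes lay between days 0 and 1.

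Some genes had a high or a low on day 1. The 8 genes furthest above both neighbouring days were Ifitm1, Aldh3a1, Gulp1, Scn7a, Dhrs3, Pappa, Kif21b and Robo2. Ifitm1, an interferon-induced membrane protein, had means of 6.46, 31.5, 6.64 and 4.54 scaled CPM on days 0, 1, 2 and 4, Gulp1, an engulfment adaptor, 13.6, 55.5, 19.9 and 16.7, and Scn7a, a sodium channel, 0.282, 28.4, 10.3 and 8.15. Dhrs3, a retinal reductase, had means of 12.2, 35.3, 13.1 and 4.89, and Pappa, a protease of IGF-binding proteins, 4.08, 12.8, 4.46 and 3.25. The 8 genes furthest below both days were Asns, Mthfd2, Phgdh, Aldh1l2, Slc7a5, Chac1, Rrp12 and Aen. Asns had means of 223, 41.5, 193 and 192 scaled CPM on days 0, 1, 2 and 4, Phgdh 438, 69.5, 286 and 311, Mthfd2 131, 28.5, 159 and 181 and Slc7a5, a transporter of large neutral amino acids, 234, 71.3, 328 and 327. The amino acid genes that fell between days 0 and 1 thus had higher means again on day 2. These genes were chosen for this pattern, so their levels are a description.

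**Figure D4:**
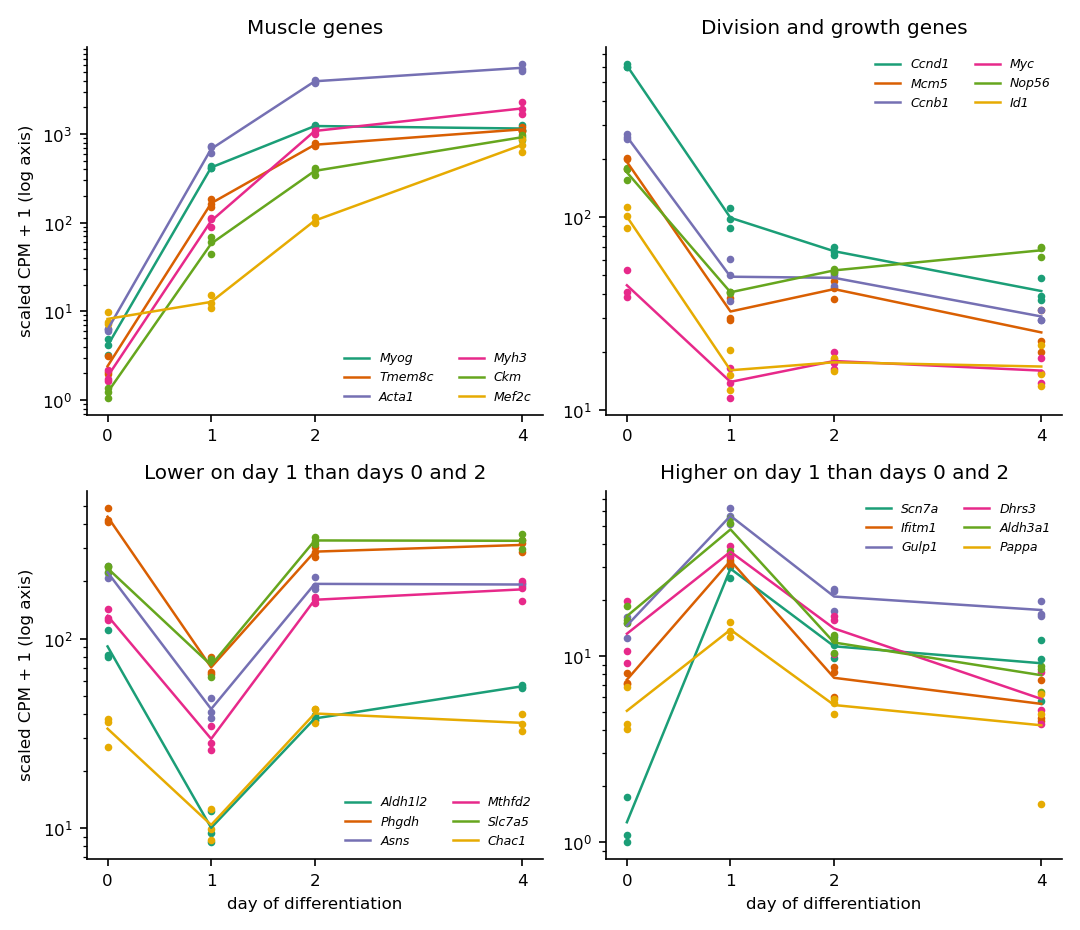
Scaled CPM + 1 on a log axis in control cells on days 0, 1, 2 and 4, with points for the 3 libraries of a day and lines through the means, for 6 genes in each of 4 panels. Muscle genes climb to day 2 or 4, division and growth genes drop between days 0 and 1, and the lower panels show genes with a dip or a peak on day 1, such as Asns and Ifitm1.

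The shares of promoters with a given motif were set beside those of all genes tested. In the Z-disc, M-band and assembly list, CTANNNNTAG was in 7 of 20 promoters (35%), against 3.56% of genes tested. The E-box forms CAGCTG and CACCTG were in 10 (50%) and 8 (40%) of the 20, against 17.8% and 19.4%. Among 9 actin and myosin promoters CAGCTG was in 5 (55.6%) and CTANNNNTAG in 0, which says only that those letters are not in this window. The lists were chosen for their known biology, whose regulators were read in part from such promoters, so these shares describe the lists and test nothing.

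**Figure D5:**
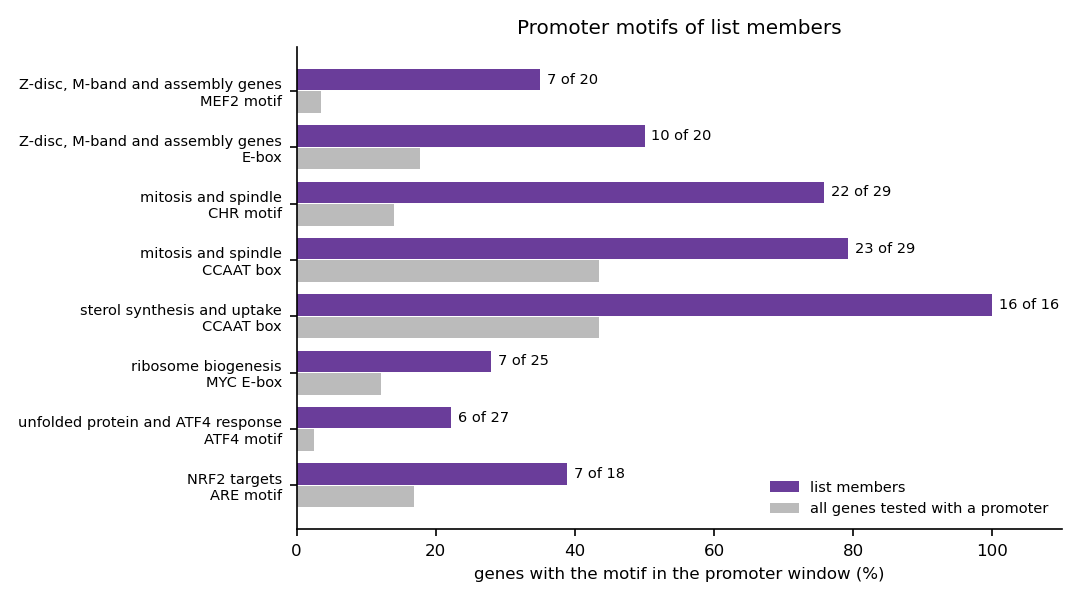
Percent of genes with a motif in the window of 250 bases before to 50 after the start, for members of 6 lists (purple, with counts; E-box stands for CAGCTG and MYC E-box for CACGTG) and for all genes tested with a RefSeq promoter (grey). The CHR motif is in 75.9% of mitosis genes and 14.0% of genes tested, and the CCAAT box is in 100% of sterol genes and 43.5% of genes tested.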

How the data were processed

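RNA was extracted with TRIzol and sequenced as TruSeq libraries, per the labels' protocols. The authors deposited 1 table with a column per library. The columns are named CPM, but their sums differ between libraries, so the values are treated as a signal, the authors' scaled count per gene, and are called scaled CPM. Their steps show that each is a whole read count times 1 factor per library, and 100% of values came out whole within 0.02 of a read. Which aligner, counter, genome build, strand setting and scaling were used is not given in the sources used here. Every column of the table was mapped to a sample.

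The genes described, those that reached 1 scaled CPM in 3 or more of the 6 libraries, were tested with limma 3.58.1 in R 4.3.3 on log2(scaled CPM + 1). The fit took the 12 control libraries in 4 groups, with the mean-variance trend, 8 residual and 14.78 prior degrees of freedom, and Benjamini-Hochberg adjustment at 0.05. On the recovered reads, edgeR 4.0.16 (quasi-likelihood) called 3134 genes higher and 2755 lower, and DESeq2 1.42.0 called 3150 higher and 2920 lower. In data simulated with 11556 genes and 200 changed, limma recovered 93% of changes of 4-fold and 68% of 2-fold, with 5.85% false among the genes called. Far fewer genes changed there than the 6141 called in the data, so these shares do not carry over to the comparison. Among replicates, 22 genes had at least 100 reads in 1 library and 0 in another. Depth was 18462092 to 25001080 reads a library. In 34.95% to 41.8% of gene pairs 11 to 20 reads in 1 library stood beside 0 in its replicate, so low levels are imprecise. In the day 2 control libraries, whose depth lay in the same range, that share was 11.67% to 22.96%, and the source of the difference was not tested.

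The members, the 42 gene lists (954 distinct genes) and the 9 marker lists were chosen with earlier results of these data known. The genes named are key genes of the lists, in each list up to 5 called members with the largest change in each direction and up to 3 uncalled members with the highest mean, the 15 largest rises and 15 largest falls, and the 8 genes furthest above and the 8 furthest below both day 0 and day 2. Shares of reads were compared with exact two-sided permutation tests. Promoters were matched by symbol in RefSeq's table (GRCm38.p6), and a gene counts as holding a motif where any of its promoters does. Tables were handled with Python 3.11.15, pandas 2.3.3 and numpy 2.4.6, and plots were drawn with matplotlib 3.10.9. Normalization, pseudocount, filter, model and single libraries were varied. A few genes that the naming rule picks are not reported here.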

Additional observations from a re-analysis of the deposited data

How the results depend on the processing

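Under 21 alternative settings no named gene changed direction past the threshold, and no gene was called in the opposite direction. Of the genes that the naming rule picks, 0 to 11 lost their call in a setting, the most without day 1 replicate 3, and 1 to 13 gained one. The counts of called genes stayed within 1.5 times the values given in all settings except 1, the pseudocount of 5, where 732 genes were higher by 2-fold or more against 1266 with a pseudocount of 1. Leaving out 1 library at a time gave 2853 to 3049 genes higher and 2648 to 2808 lower, and at 2-fold or more 1264 to 1323 higher and 1022 to 1096 lower. Quantile normalization gave 3061 higher and 3153 lower. With the replicate number as a block, 3232 genes were higher and 3006 lower. Same-numbered libraries of the days correlated at 0.0331, 0.0716 and -0.0115 in their deviations from the day means, and the numbers are not described as a pairing. The scaling alternatives moved the median change of all genes to between -0.01 and 0.04.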

Other observations

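The genes below belong to none of the lists and were chosen after their values were seen. They passed in limma after Benjamini-Hochberg adjustment, and their days do not overlap, but the choice makes them a description. Hfe2 and Mrln were also under 1 scaled CPM in every day 0 library, so the level filter fixed their direction in advance. Fndc1, a fibronectin domain protein, had 76.8, 66.1 and 74.4 scaled CPM on day 1 and 0.810, 2.65 and 0.834 on day 0. Cp, the copper oxidase ceruloplasmin of plasma, had 133, 124 and 148 scaled CPM on day 1 and 6.88, 4.59 and 5.21 on day 0. Ogn, a small leucine-rich proteoglycan of connective tissue, had 628, 612 and 650.0 scaled CPM on day 1 and 69.3, 59.6 and 68.0 on day 0.

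A further group is known from muscle. Hfe2, which encodes the iron regulator hemojuvelin and is expressed in muscle and liver, had 42.8, 42.2 and 50.02 scaled CPM on day 1 and 0.180, 0.210 and 0.156 on day 0. Mrln, which encodes the calcium pump micropeptide myoregulin, had 15.0, 10.3 and 13.1 scaled CPM on day 1 and 0.990, 0.0421 and 0 on day 0. Fndc5, the precursor of irisin, had 13.7, 12.1 and 12.8 scaled CPM on day 1 and 0.360, 0.210 and 1.46 on day 0. Among falls, Nefm, a neurofilament chain, had 7.75, 4.55 and 4.88 scaled CPM on day 1 and 47.7, 47.8 and 46.8 on day 0, and Havcr2, the immune receptor TIM-3, had 1.35, 3.44 and 3.45 on day 1 and 16.1, 19.7 and 16.5 on day 0.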
